A study of Homo sapiens with 15 samples.

Results

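The comparison described here is that of A673 cells with endogenous EWS/FLI (iLuc) against the same cells after its knockdown (iEF). A673 is an established Ewing sarcoma cell line. The members were chosen by their labels, as the 3 iLuc and 3 iEF libraries among the 15 libraries of 5 groups in the series. iLuc cells carried a retroviral shRNA against luciferase, and iEF cells carried one against the 3′UTR of the fusion transcript. Both also received an empty cDNA vector, so that drug selection was shared. The shRNA was added on day 1 and the vector on day 5. Selection used puromycin at 2 μg/mL and, with the vector, hygromycin B at 400 μg/mL, and cells were harvested on day 16. The other 9 libraries, of rescued cells, entered the statistical model to estimate the spread between replicates and are otherwise not described. In bulk samples, fewer cells of a type and less RNA per cell cannot be told apart, and within these 2 groups an effect of the hairpin itself cannot be told apart from that of the knockdown. All cells come from 1 line. The labels do not say whether replicates are separate cultures, but the study's scheme has transduction with the shRNA as a step within each replicate, and p-values measure the spread between these libraries.

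EWS/FLI joins the amino-terminal part of EWSR1, an RNA-binding protein, to the ETS DNA-binding domain of FLI1. The fusion binds ETS sites and also runs of repeated GGAA units, where it can open chromatin and act as an enhancer factor. It also lowers the RNA of many genes of mesenchymal cells. Ewing sarcoma is a tumour of bone and soft tissue with some features of neural cells, and mesenchymal stem cells and neural crest cells have each been proposed as its origin.

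Below, "higher" means higher in iLuc, the cells with endogenous EWS/FLI, and "lower" means lower in iLuc, so that the RNA rose on knockdown. Values for single libraries are CPM, the gene's counts scaled to the TMM-normalised library size, given for replicates 1, 2 and 3 in that order, and log2 fold changes are those of iLuc minus iEF with their SE. A gene was called higher or lower at an adjusted p under 0.05 in edgeR's quasi-likelihood test over all 28793 genes with an average of at least 1 count per library. Of these genes 19.5% were called higher and 22.1% lower. With a change of over 2-fold required as well, the shares were 10.5% and 13.7%. The gene lists below hold protein-coding genes, and of the 16089 protein-coding genes tested 25.6% were called higher and 31.4% lower. Each count of list members is to be read against those 2 shares. Of the called genes that are given below with a value for each library, FOXO1 had overlapping groups, and for each of the others the 3 iLuc libraries lay all above or all below the 3 iEF libraries.

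Runs of GGAA units near the starts of genes were read from the reference genome, since they are the sequences to which the fusion is known to bind. The windows of 4 genes named below with long runs in the 5 kb before the gene start are shown with 20 bases on each side, on the strand that reads GGAA, with the run in capitals. The GRCh37 windows are chr7:116163121-116163224 for CAV1 on the plus strand and chr19:15612730-15612825 for PGLYRP2, chrX:30328855-30328938 for NR0B1 and chr3:42308309-42308400 for CCK on the minus strand.
CAV1: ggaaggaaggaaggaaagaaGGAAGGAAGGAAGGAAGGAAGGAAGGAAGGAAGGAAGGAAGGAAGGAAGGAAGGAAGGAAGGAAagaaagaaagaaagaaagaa
PGLYRP2: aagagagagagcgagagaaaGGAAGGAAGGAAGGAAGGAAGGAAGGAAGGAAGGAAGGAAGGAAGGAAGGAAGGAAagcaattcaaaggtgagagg
NR0B1: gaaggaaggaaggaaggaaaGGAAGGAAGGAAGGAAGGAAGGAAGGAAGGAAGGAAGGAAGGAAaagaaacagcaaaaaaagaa
CCK: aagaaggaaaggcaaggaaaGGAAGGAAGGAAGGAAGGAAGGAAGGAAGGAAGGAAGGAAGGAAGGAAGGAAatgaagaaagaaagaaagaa
The run of CAV1, which encodes the caveolar coat protein caveolin-1, has 16 units and begins 1907 bases before the gene start. That of PGLYRP2, a peptidoglycan amidase, has 14 units and begins 3038 bases before it. The run of NR0B1, an orphan nuclear receptor, has 11 units and begins 1411 bases before it. The run of CCK, the gut and brain peptide cholecystokinin, has 13 units and begins 703 bases before it. The runs of CAV1 and NR0B1 are followed or preceded by further GGAA units with interruptions, as the lower-case bases show.

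All 4 genes were higher in iLuc, and in none did the groups overlap. Their shared direction is no evidence about runs, because runs were looked up only for named genes. CAV1, NR0B1 and CCK were named as genes reported as activated by the fusion, and PGLYRP2 as 1 of the 10 largest rises. Named genes on chromosome 8 were left out when runs were looked up for single genes. The 4 are thus not a full account of named genes with long runs. CAV1 had 2140, 2040 and 2460 CPM in iLuc and 898, 830 and 866 CPM in iEF, a log2 fold change of 1.35 ± 0.13 (SE) and an adjusted p of 8.88e-07. NR0B1 had 54, 61.2 and 49.8 CPM in iLuc and 3.94, 8.67 and 4.51 CPM in iEF. Its log2 fold change was 3.34 ± 0.38 with an adjusted p of 5.44e-06. CCK had 7.82, 4.68 and 6.57 CPM in iLuc and 0.184, 0.202 and 0.0291 CPM in iEF, so that it was near the limit of detection without the fusion. PGLYRP2 had 11, 9.59 and 15.7 CPM in iLuc and 0.105, 0.27 and 0.0873 CPM in iEF, and its log2 fold change was 6.32 ± 0.36 with an adjusted p of 7.1e-09. CAV1, with the longest of these 4 runs, thus had the smallest fold change.

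Across genes, the share with a long run was largest among those that were higher with the fusion, which is given as a description with no test. A run of at least 6 units lay from 5 kb before to 1 kb after the gene start in 3.30% of the 2939 annotated genes called higher past 2-fold. The share was 0.832% of the 3846 genes called lower past 2-fold and 0.890% of the 16172 genes not called. With at least 10 units the shares were 2.42%, 0.390% and 0.451%. Short runs of at least 3 units were found in 6.57%, 4.73% and 4.06% of the same classes. All but 97 of the 2939 genes called higher past 2-fold had no run of 6 units in this window, which covers no distant sites. In the RefSeq promoters (250 bases before to 50 after the start, GRCh38.p14), the ETS core CCGGAAGT was present on either strand in 6.50% of genes called higher, 5.78% of those called lower and 7.92% of those not called, against 6.93% of all 14697 promoters matched. These shares are descriptions of the reference sequence, and binding was not measured here.

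**Figure D1:**
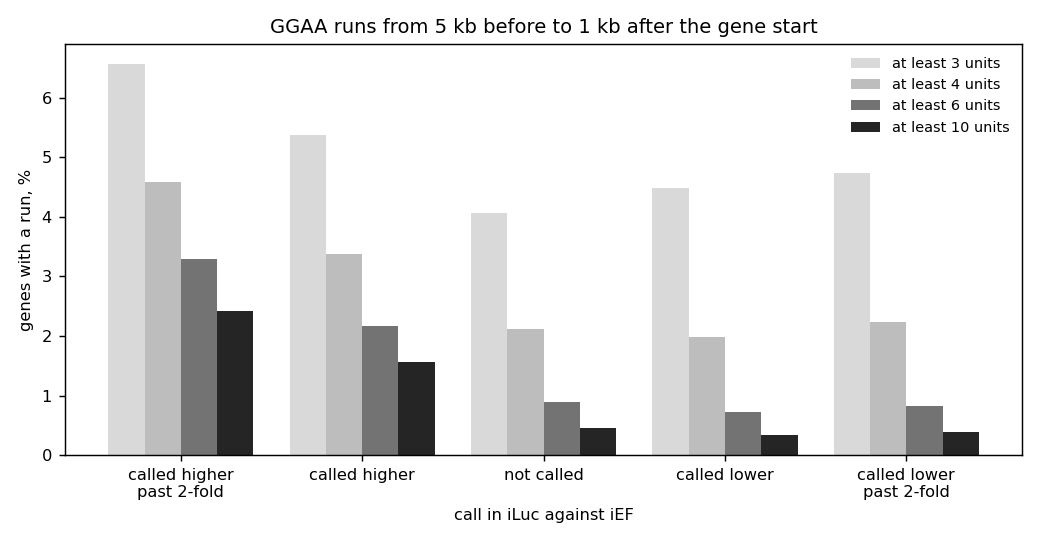
Share of tested genes (%, vertical axis) with a run of at least 3, 4, 6 or 10 GGAA units from 5 kb before to 1 kb after the gene start, by call in iLuc against iEF. Runs of at least 10 units were present in 2.42% of genes called higher past 2-fold and in 0.390% of those called lower past 2-fold.

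Libraries held between 29959146 and 32869306 counts in iLuc and between 30347437 and 41859880 in iEF, with 29254 to 30249 genes detected. The 100 most abundant genes took 16.6% to 17.6% of counts in iLuc and at least 18.5% in iEF. TMM factors were 1.04 to 1.09 in iLuc and 0.894 to 0.977 in iEF, and scaling by total counts instead moved the median log2 fold change of all genes from 0.04 to 0.25. With that scaling 60.7% of called genes were higher, against 46.9% with TMM, so changes of around 0.2 on the log2 scale depend on the scaling. Replicate 2 of iEF stood apart. Among 291 genes called higher past 8-fold with an average of at least 50 counts, it was the highest of the 3 iEF libraries for 241, and their median residual level was 8.53% of the iLuc mean, against 4.50% and 4.71% in the other 2. Its FLI1 level, given below, was not apart from that of replicate 3. Without this library 4771 genes were higher and 6045 lower, against 5624 and 6368 with it. Mitochondrial genes took 0.243% to 0.338% of counts in iLuc and 0.193% to 0.218% in iEF.

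The cells had the defining RNAs of Ewing sarcoma, with an exception. NKX2-2, a homeodomain factor used as a diagnostic marker, had 4.31, 5.89 and 5.49 CPM in iLuc and 0.946, 1.01 and 0.873 CPM in iEF, a log2 fold change of 2.46 ± 0.25 (SE) and an adjusted p of 1.56e-06. STEAP1, a membrane protein, had 192, 158 and 195 CPM in iLuc and 46.4, 44.1 and 47.4 CPM in iEF. CD99, the surface marker of the tumour, had 0 or 1 counts in every library. It is 1 of 47 genes of the region shared by X and Y that the count table lists with a separate Y copy, and all 47 had at most 10 counts in each of the 6 libraries, so no level can be given. Markers that define other cell types were near 0. CDH1 had at most 3 counts in any library, LYZ and SPI1 at most 2, MYOD1 at most 2, and CD3E had none. CDH5 of endothelium had 2 to 8 counts, whereas KDR, a receptor that other cells also use, had 32 to 39 counts in iLuc and 324 to 444 in iEF.

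Both parts of the fusion were measured as whole genes, in which fused and unfused transcripts are counted together. FLI1 (chr11:128556430-128683162 in GRCh37), which A673 cells transcribe as part of the fusion, had 48, 47.8 and 52.4 CPM in iLuc and 12.9, 15.5 and 15.3 CPM in iEF. The groups were 3.39-fold apart, a log2 fold change of 1.77 ± 0.10 (SE) and an adjusted p of 7.93e-09. EWSR1 (chr22:29663998-29696515), of which the unfused allele is still transcribed, had 367, 362 and 419 CPM in iLuc and 320, 308 and 340 CPM in iEF. Its log2 fold change was 0.24 ± 0.07, with an adjusted p of 0.0078 and no overlap of the groups, and the call was lost without replicate 3 of either group.

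Of genes reported as activated by the fusion, 33 of 41 tested members were higher and 3 lower, with a median log2 fold change of 2.06. Of those reported as repressed, 19 of 20 tested members were lower and none higher, with a median of -3.55. These 2 lists come from earlier work that used A673 among other cells and in part from the same study, so their direction is not independent evidence. PPP1R1A, an inhibitor of protein phosphatase 1, had 55, 41.9 and 70.1 CPM in iLuc and 0.447, 0.809 and 0.436 CPM in iEF and a log2 fold change of 6.64 ± 0.41. BCL11B, a zinc finger factor of T cells and neurons, had 177, 251 and 180 CPM in iLuc and 18.6, 20.7 and 15 CPM in iEF. DKK2, a secreted modulator of Wnt receptors, had 165, 183 and 207 CPM in iLuc and 5.23, 11.7 and 4.8 CPM in iEF. All 3 had no overlap of the groups, and replicate 2 of iEF had the highest residual level of each. CCND1, which encodes cyclin D1, was not called, with 1690, 1740 and 1810 CPM in iLuc and 2150, 1580 and 1710 CPM in iEF and an adjusted p of 0.841. The range of the 3 iLuc libraries lay within that of the iEF libraries for this gene. UPP1, uridine phosphorylase, was lower in iLuc with a log2 fold change of -2.69 ± 0.32. ERG, an ETS factor related to FLI1 and named after its values were seen, had 0 counts in all 3 iLuc libraries and 56, 25 and 52 in iEF. It was at least 14.4-fold higher in iEF, taking 3 counts per library as the floor.

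Among repressed targets, TGFBR2, the type II receptor of TGF-beta, had 25.9, 24.6 and 26.5 CPM in iLuc and 136, 134 and 148 CPM in iEF. IGFBP3, a secreted protein that binds insulin-like growth factors, had 35.9, 30.3 and 22.1 CPM in iLuc and 7640, 4800 and 4870 CPM in iEF, which is 196-fold higher in iEF. LOX, lysyl oxidase, which crosslinks collagen, had 4.31, 2.89 and 3.19 CPM in iLuc and 405, 266 and 422 CPM in iEF and a log2 fold change of -6.74 ± 0.42. The groups were far apart for these 3 genes. FOXO1, a forkhead factor, had 7.18, 11 and 3.91 CPM in iLuc and 9.83, 12.9 and 13.2 CPM in iEF. It was called lower with an adjusted p of 0.0153, but replicate 2 of iLuc lay within the iEF range.

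**Figure D2:**
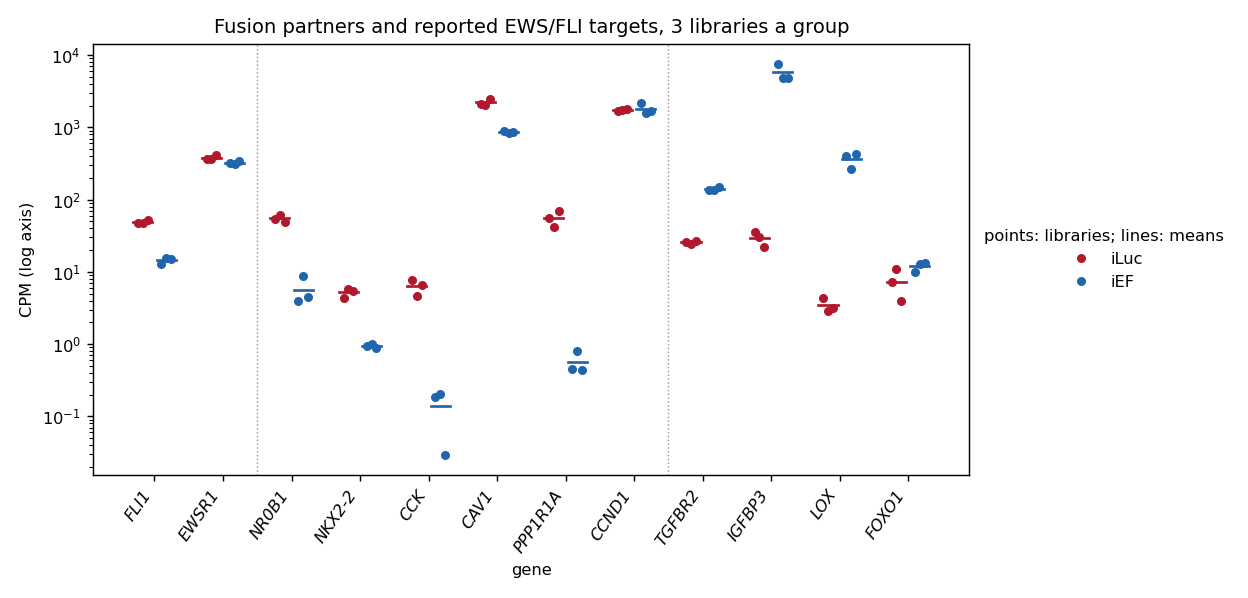
CPM (log axis) of FLI1, EWSR1 and reported targets of the fusion in each of the 3 iLuc and 3 iEF libraries, with bars at group means and dotted lines between fusion partners, activated targets and repressed targets. CCND1 overlaps between the groups, while IGFBP3 is below 36 CPM in every iLuc library and at or above 4800 CPM in every iEF library.

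Neural genes moved in both directions, as did protein-coding genes in general, of which 25.6% were higher and 31.4% lower. Of pan-neuronal and synaptic genes, 13 of 36 tested members were higher (36.1%) and 9 were lower (25%). Without replicate 2 of iEF or replicate 1 of iLuc 8 were higher, so the excess of higher members over the general share was not stable. Genes of the synaptic vesicle and its release were found among the higher and the lower members, as were genes of the cytoskeleton. Among those higher, SYP, which encodes the vesicle protein synaptophysin, had 33.1, 37.2 and 33.3 CPM in iLuc and 4.1, 3.64 and 3.78 CPM in iEF, a log2 fold change of 3.15 ± 0.25 (SE) and an adjusted p of 1.32e-07. SYT1, the calcium sensor of vesicle release, had 186, 193 and 217 CPM in iLuc and 70.7, 89 and 76.1 CPM in iEF. SNAP25, of the complex that joins vesicles to the cell membrane, had 6.14, 5.86 and 5.55 CPM in iLuc and 2.97, 4.82 and 4.39 CPM in iEF, an adjusted p of 0.037 and a log2 fold change of only 0.58 ± 0.21. Among those lower, TUBB3, neuronal tubulin, had 26.8, 16.9 and 18.6 CPM in iLuc and 56, 41.9 and 46.5 CPM in iEF. L1CAM, an adhesion molecule of growing axons, had 0.52, 0.421 and 0.537 CPM in iLuc and 31.6, 46.6 and 51.9 CPM in iEF and was 88-fold higher in iEF.

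Neuroendocrine genes were split as well, with 7 higher and 7 lower of 19 tested (36.8% each, against 25.6% and 31.4% of all protein-coding genes). CHGA, chromogranin A of secretory granules, had 17.9, 25.9 and 11.4 CPM in iLuc and 0.552, 2.12 and 0.698 CPM in iEF, a log2 fold change of 4.17 ± 0.42 (SE) and an adjusted p of 1.61e-06. PCSK1, a prohormone convertase of such granules, moved the other way, with 2.63, 1.63 and 1.64 CPM in iLuc and 75.5, 51.3 and 45 CPM in iEF. Another convertase of the list, PCSK2, named after its values were seen, was called higher like CHGA. Neural crest regulators were mostly lower, with 12 of 19 tested members lower and 4 higher. EDNRB, the endothelin receptor of migrating crest cells, had 0.458, 0.898 and 0.448 CPM in iLuc and 72, 75.2 and 78.1 CPM in iEF. It stayed under 1 CPM in each iLuc library. SNAI2 (Slug), a repressor of cell adhesion genes, had 2.93, 1.8 and 2.51 CPM in iLuc and 42.3, 39 and 37.8 CPM in iEF and a log2 fold change of -4.05 ± 0.18. SOX9, a factor of crest and cartilage cells, had 15.6, 9.68 and 16.6 CPM in iLuc and 80.5, 81.7 and 85.1 CPM in iEF, and TFAP2A, another crest factor, had a log2 fold change of -1.73 ± 0.19. PAX7, a paired-box factor of crest and muscle progenitors, was an exception, with 35.9, 17.3 and 43 CPM in iLuc and 4.23, 2.93 and 2.33 CPM in iEF. SOX10, the defining crest and Schwann factor, was under 0.3 CPM in every library and not called.

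Regulators of neural progenitors gave 11 of 22 tested members higher and 5 lower. Over the alternatives the count higher lay between 7 and 12, and it was 7 without replicate 2 of all groups. SOX1, an early factor of the neural plate, had 42.7, 53 and 43.9 CPM in iLuc and 2.39, 2.87 and 1.8 CPM in iEF, a log2 fold change of 4.31 ± 0.26 (SE) and an adjusted p of 9.95e-09. SOX2, a factor of neural and pluripotent cells, had 106, 92 and 131 CPM in iLuc and 50.2, 63.6 and 45.2 CPM in iEF. Both were apart between groups. NES, the intermediate filament nestin, had 38.9, 24.5 and 37.1 CPM in iLuc and 218, 337 and 409 CPM in iEF and so was higher without the fusion. PAX6 was lower by a smaller amount, with a log2 fold change of -0.56 ± 0.16. Of glial and Schwann genes, 3 were higher and 6 lower of 13. PMP22, a myelin protein also made by other cells, had 1.77, 1.37 and 0.955 CPM in iLuc and 254, 278 and 202 CPM in iEF, whereas S100B was at most 0.135 CPM in every library.

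Most mesenchymal matrix genes were lower. The share called lower was 93.8% of fibrillar collagens and matrix glycoproteins (30 of 32), 100% of collagen-processing and crosslinking enzymes (19 of 19) and 70% of basement membrane genes (14 of 20). Their median log2 fold changes were -2.95, -2.33 and -1.73. FN1, fibronectin, had 1750, 1540 and 1750 CPM in iLuc and 20000, 17700 and 20300 CPM in iEF, a log2 fold change of -3.52 ± 0.11 (SE) and an adjusted p of 1.03e-10, and was among the 5 genes with the largest fall in CPM in iLuc. COL1A1, a chain of type I collagen, had 5.26, 2.78 and 6.09 CPM in iLuc and 94.6, 99.7 and 131 CPM in iEF. COL3A1 had 30, 9.31 and 17.3 CPM in iLuc and 88.9, 228 and 148 CPM in iEF, with its lowest values in replicate 2 of iLuc and replicate 1 of iEF. Collagen RNA was thus present with the fusion as well, at a fraction of its level without it. THBS1, the matrix protein thrombospondin-1, had 1.28, 0.926 and 0.806 CPM in iLuc and 96.5, 131 and 190 CPM in iEF. LOXL2, a relative of LOX, had 3.61, 3.09 and 2.63 CPM in iLuc and 150, 158 and 172 CPM in iEF and a log2 fold change of -5.68 ± 0.32. LAMA4, a laminin chain of vessel basement membrane, had 2.54, 1.12 and 1.97 CPM in iLuc and 257, 284 and 235 CPM in iEF. COL4A1 of basement membrane differed far less, with 91.7, 83.5 and 80.7 CPM in iLuc and 117, 138 and 144 CPM in iEF and a log2 fold change of -0.62 ± 0.19. LAMB3, a laminin chain of epithelia, was higher, with a log2 fold change of 0.68 ± 0.20.

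Surface and stem genes of mesenchymal stromal cells, a list that also holds transcription factors, were lower in 14 of 18 tested members, with a median of -2.64. NT5E (CD73), an ectoenzyme that makes adenosine, had 51.4, 25.4 and 36.5 CPM in iLuc and 3760, 2690 and 3610 CPM in iEF, a log2 fold change of -6.51 ± 0.35 (SE) and an adjusted p of 4.61e-09. ENG (CD105), a TGF-beta co-receptor, had 3.76, 3.79 and 2.75 CPM in iLuc and 8.93, 9.78 and 12.9 CPM in iEF. THY1 (CD90), often used beside them as a marker, was not called, with 55.7, 60.9 and 59.2 CPM in iLuc and 29.5, 53.8 and 65.6 CPM in iEF, and its groups overlapped. PDGFRA, the PDGF receptor alpha chain, had 0.428, 0.842 and 0.836 CPM in iLuc and 112, 160 and 110 CPM in iEF and was 182-fold higher in iEF. PDGFRB was not called, with an adjusted p of 0.07. It was called lower in some alternatives, among them the DESeq2 Wald test and the fit of only the 6 libraries, and not in others. NGFR (CD271) was higher in iLuc, with 42.6, 45.8 and 60.7 CPM in iLuc and 14.2, 21.5 and 19.7 CPM in iEF.

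Genes that tie the cytoskeleton to the matrix followed the matrix genes. Of integrins and focal adhesion genes 27 of 30 tested members were lower, and of smooth muscle and actin contractile genes 21 of 26 tested members were lower. The medians were -1.84 and -1.76. ITGB1, the common beta chain, had 563, 602 and 571 CPM in iLuc and 1680, 1570 and 1970 CPM in iEF. ITGA5, its partner in the fibronectin receptor, had 58.9, 53.2 and 51.9 CPM in iLuc and 163, 156 and 179 CPM in iEF. Both chains of the fibronectin receptor were thus lower, as was its ligand fibronectin. ITGA3, the alpha chain of a laminin receptor, had 5.07, 3.56 and 2.12 CPM in iLuc and 375, 290 and 366 CPM in iEF and was 95.8-fold higher in iEF. The laminin receptor chain ITGA7 went the other way, with a log2 fold change of 1.21 ± 0.20. TAGLN (SM22), an actin-binding protein of smooth muscle, had 8.86, 3.17 and 7.43 CPM in iLuc and 135, 141 and 146 CPM in iEF, a log2 fold change of -4.49 ± 0.56 (SE) and an adjusted p of 1.18e-05. ACTA2, smooth muscle actin, had 24.6, 19.8 and 27.4 CPM in iLuc and 64.1, 90.3 and 77.1 CPM in iEF. MYH10, a non-muscle myosin heavy chain, was the exception among contractile genes, with a log2 fold change of 0.69 ± 0.13.

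Regulators and markers of the epithelial to mesenchymal transition gave 14 of 16 tested members lower and none higher, with a median of -2.97. VIM, vimentin, had 598, 391 and 584 CPM in iLuc and 2880, 2340 and 3090 CPM in iEF. CDH2, N-cadherin, had 30.8, 16.1 and 27.8 CPM in iLuc and 373, 339 and 403 CPM in iEF. These are markers that many mesenchymal cells carry. ZEB1, a repressor of epithelial genes, had 16.6, 20.1 and 17.3 CPM in iLuc and 66.8, 95.2 and 59.4 CPM in iEF. Its relative ZEB2 was not called, with 233, 244 and 237 CPM in iLuc and 278, 242 and 276 CPM in iEF, and TWIST1 was called with a log2 fold change of only -0.61 ± 0.21. Epithelial genes were lower in 10 and higher in 6 of 25 (40% and 24%). EPCAM, an epithelial adhesion molecule, was higher at a low level of 0.642, 0.842 and 0.985 CPM in iLuc and 0.0788, 0.135 and 0.145 CPM in iEF.

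**Figure D3:**
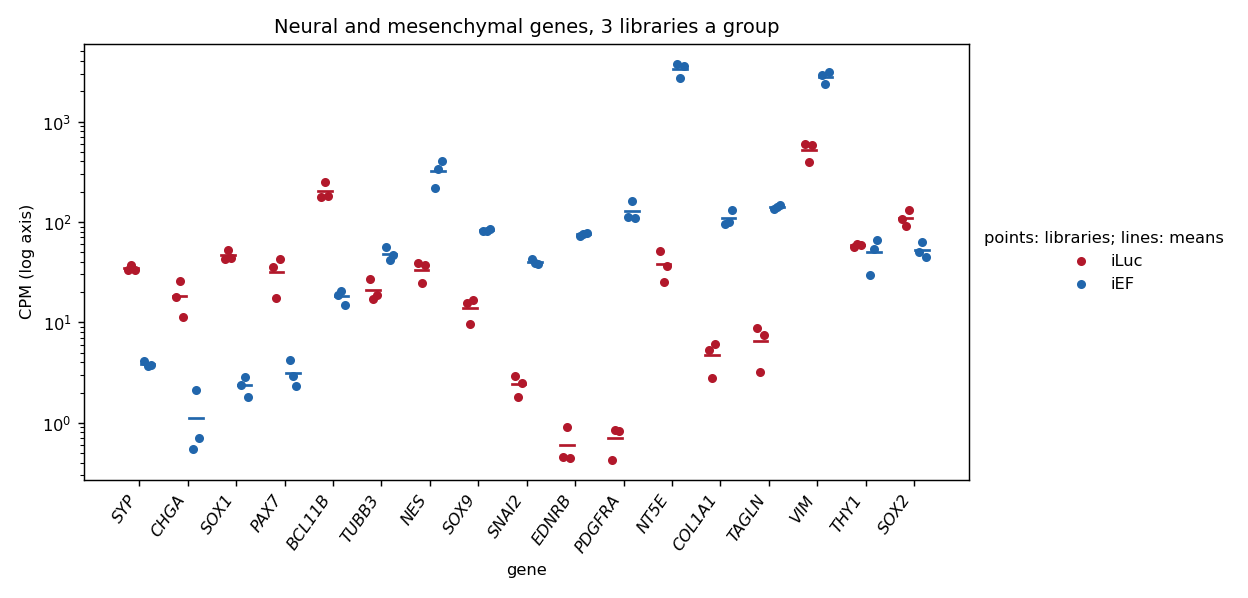
CPM (log axis) of neural and mesenchymal genes in each of the 3 iLuc and 3 iEF libraries, with bars at group means. SYP, CHGA, SOX1, PAX7, BCL11B and SOX2 are higher in every iLuc library than in any iEF library, THY1 overlaps, and the other 10 genes are lower in every iLuc library.

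Lists of differentiated mesodermal lineages held changes in both directions. Of bone genes 12 were lower and 3 higher of 19, with a median of -1.92. SPP1, osteopontin, had 0.489, 0.393 and 0.388 CPM in iLuc and 126, 177 and 102 CPM in iEF, and RUNX2, a master factor of osteoblasts, had 2.35, 1.35 and 2.21 CPM in iLuc and 13.2, 11.4 and 11.3 CPM in iEF. ALPL, the alkaline phosphatase of mineralising bone, was higher, with 5.87, 8.5 and 14.6 CPM in iLuc and 0.815, 1.92 and 2.21 CPM in iEF, as was the homeobox factor DLX5, with a log2 fold change of 2.77 ± 0.24. SP7, the factor that follows RUNX2 in osteoblasts, was at most 0.269 CPM and not called. Of cartilage genes 8 were lower and 3 higher of 20. COL2A1, the collagen that defines cartilage, was not called, with 1.13, 0.757 and 1.04 CPM in iLuc and 1.05, 1.52 and 1.57 CPM in iEF, and COL11A1 had 0.642, 0.421 and 0.925 CPM in iLuc and 52.3, 88.3 and 93.1 CPM in iEF. Of fat genes 7 were lower and 5 higher of 14, and PPARG, the master factor of fat cells, stayed under 1 CPM in every library. KLF15, a factor of metabolic tissues, had 19.6, 15.9 and 22.8 CPM in iLuc and 1.02, 1.38 and 0.96 CPM in iEF. Of skeletal muscle genes 6 were lower and 3 higher of 17. TNNT1, slow troponin T, had 31.3, 46.9 and 57.1 CPM in iLuc and 1.47, 2.97 and 1.66 CPM in iEF, although the muscle factors MYOD1 and MYOG were near 0.

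Endothelial genes gave 12 lower and 5 higher of 21. KDR and FLT4, VEGF receptors of blood and lymph vessels, moved in opposite directions, with log2 fold changes of -3.45 ± 0.31 and 4.10 ± 0.52. EDN1, the peptide endothelin-1, had 0.245, 0.0842 and 0.0299 CPM in iLuc and 11.2, 13.1 and 15.2 CPM in iEF. It is made by endothelium and by other cells. Of blood genes 3 were higher and 5 lower of 17, around or below the background. CD79A, a signalling chain of the B-cell receptor, had 4.49, 4.88 and 4.78 CPM in iLuc and 0.0526, 0.135 and 0.0291 CPM in iEF. RUNX1, a master factor of blood stem cells, had 0.122, 0 and 0.149 CPM in iLuc and 14.8, 11.8 and 15 CPM in iEF. Of 12 germline and cancer-testis genes tested, 5 were higher and none lower. PRAME, a tumour antigen, had 12.9, 18.1 and 16.8 CPM in iLuc and 0.342, 0.438 and 0.611 CPM in iEF, and LIN28B, which blocks let-7 maturation and was named after its values were seen, had 112, 139 and 106 CPM in iLuc and 2.44, 8.87 and 3.46 CPM in iEF.

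**Figure D4:**
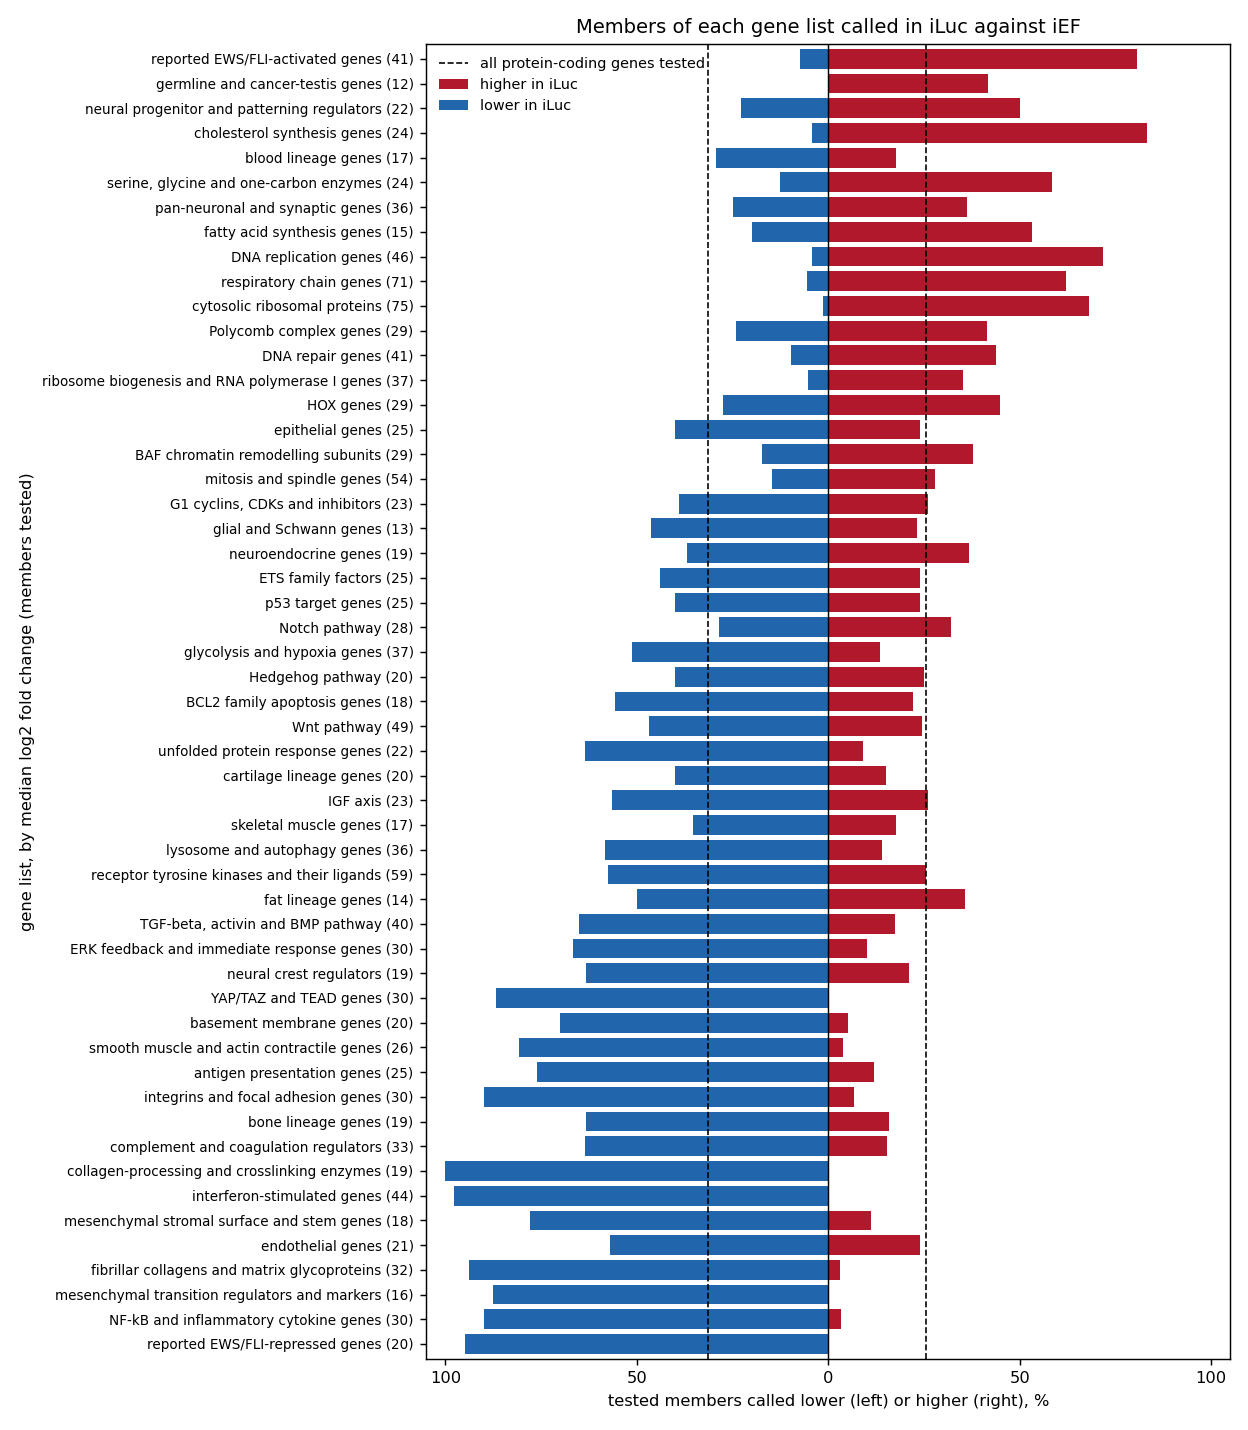
Share of the tested members of each of 53 gene lists called higher (right) or lower (left) in iLuc against iEF (%, horizontal axis), with lists ordered by median log2 fold change and dashed lines at the shares of all protein-coding genes tested, 25.6% and 31.4%. All 19 collagen-processing enzymes tested were called lower, while cholesterol synthesis genes were called higher in 83.3%.

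In the IGF axis, 13 of 23 members were lower and 6 higher. The ligand IGF1 had 28, 21.9 and 22.4 CPM in iLuc and 0.972, 2.7 and 1.22 CPM in iEF, a log2 fold change of 3.99 ± 0.39 (SE) and an adjusted p of 9.89e-07. Its receptor IGF1R was not called, with 48.4, 66.1 and 45.7 CPM in iLuc and 51, 51.8 and 51.4 CPM in iEF. Of the binding proteins, IGFBP3 was described above, and IGFBP1 had 0.0306, 0.112 and 0.0597 CPM in iLuc and 31.5, 13 and 24.8 CPM in iEF. The ligand was therefore higher and these 2 binding proteins lower in the presence of the fusion, at a receptor level for which no difference was detected.

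Genes of the TGF-beta, activin and BMP pathway were lower in 26 of 40 tested members and higher in 7. Besides the receptor TGFBR2, lower members included INHBA, a subunit of activin, with 1.93, 1.18 and 1.55 CPM in iLuc and 54.5, 27.5 and 44.5 CPM in iEF. SMAD3, which carries the signal to the nucleus, had 32.3, 28.2 and 28.4 CPM in iLuc and 177, 136 and 190 CPM in iEF. SMAD7, an inhibitor that the pathway itself induces, had 8.04, 8.33 and 8.81 CPM in iLuc and 42.3, 25.8 and 45.6 CPM in iEF. Members that carry the signal and members that dampen it were therefore both lower. FST, follistatin, which sequesters activin, had 0.367, 0.477 and 0.119 CPM in iLuc and 88.9, 31.1 and 55.4 CPM in iEF. ACVR2B, an activin receptor, was higher, with 27.3, 37.3 and 22.3 CPM in iLuc and 6.73, 7.72 and 5.96 CPM in iEF.

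Wnt genes were lower in 23 of 49 tested members and higher in 12, and secreted inhibitors of the DKK family moved in opposite directions. DKK2, given above, was 25.6-fold higher in iLuc. DKK1 had 1.44, 1.18 and 1.7 CPM in iLuc and 109, 90.8 and 111 CPM in iEF, and DKK3 had 2.96, 1.99 and 1.85 CPM in iLuc and 264, 263 and 269 CPM in iEF. The targets AXIN2 and LEF1 were not called, with adjusted p of 0.192 and 0.0797, and neither was the ligand WNT5A, with 0.519. Notch genes were higher in 9 and lower in 8 of 28, shares near the background. JAG1, a Notch ligand, had 84.3, 75.6 and 93.1 CPM in iLuc and 247, 216 and 343 CPM in iEF, while the feedback target NRARP had 4.86, 7.85 and 5.88 CPM in iLuc and 0.368, 0.506 and 0.582 CPM in iEF and HES1, a classical target, had a log2 fold change of 0.49 ± 0.16. In the Hedgehog list 8 were lower and 5 higher of 20. GLI1 and PTCH1, which the pathway can induce, were both higher, but GLI1 is also among the genes reported as activated by the fusion. Activity of the pathway was not measured. GLI1, the effector of the pathway, had 6.66, 8.05 and 6.06 CPM in iLuc and 0.184, 0.438 and 0.145 CPM in iEF. The receptor PTCH1 had 13.4, 14.3 and 12.4 CPM in iLuc and 4.15, 4.38 and 4.13 CPM in iEF.

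Receptor tyrosine kinases and their ligands were lower in 34 of 59 tested members and higher in 15. EGFR, the EGF receptor, had 0.367, 0.14 and 0.0896 CPM in iLuc and 38.8, 33.2 and 44.3 CPM in iEF, a log2 fold change of -7.65 ± 0.38 (SE) and an adjusted p of 2.07e-09. MET, the HGF receptor, had 16.1, 7.32 and 10.5 CPM in iLuc and 287, 196 and 303 CPM in iEF, and AXL, the GAS6 receptor, had 2.69, 1.77 and 1.91 CPM in iLuc and 176, 111 and 152 CPM in iEF. These receptors of epithelial and stromal growth factors were all higher without the fusion. FGFR1, a receptor of fibroblast growth factors, had 90.6, 82.6 and 86.2 CPM in iLuc and 246, 213 and 229 CPM in iEF, a smaller difference. RET, the GDNF receptor, was higher, with 33.3, 29.8 and 53.1 CPM in iLuc and 3.55, 6.54 and 2.76 CPM in iEF. Genes induced by ERK and its feedback inhibitors were lower in 20 of 30 tested members. SPRY2, a feedback inhibitor, had 6.17, 5.92 and 7.13 CPM in iLuc and 181, 133 and 150 CPM in iEF, and FOSL1, an AP-1 subunit, had 3.58, 2.92 and 4.18 CPM in iLuc and 81.1, 49.8 and 78.2 CPM in iEF. DUSP6, the ERK phosphatase, had 170, 191 and 232 CPM in iLuc and 448, 461 and 460 CPM in iEF. EGR1, an immediate early factor, was among 3 higher members, with 60.7, 77.5 and 81.7 CPM in iLuc and 27.6, 34.2 and 37.8 CPM in iEF.

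Targets and components of the YAP/TAZ and TEAD pathway, which senses cell shape and stiffness, were lower in 26 of 30 tested members and none was higher. CCN2 (CTGF), a classical target, had 6.69, 3.2 and 11.2 CPM in iLuc and 137, 116 and 134 CPM in iEF, and CCN1 (CYR61) had 48.7, 23.7 and 66.5 CPM in iLuc and 110, 120 and 118 CPM in iEF. WWTR1, which encodes TAZ, had 79.2, 67.9 and 67.5 CPM in iLuc and 259, 237 and 242 CPM in iEF. YAP1 itself differed by a log2 fold change of -0.25 ± 0.10 with an adjusted p of 0.0492, which is close to the threshold and was lost with DESeq2. Under total-count scaling 25 members were lower.

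NF-kB and inflammatory cytokine genes were lower in 27 of 30 tested members, with a median of -3.46. CXCL8, the neutrophil chemokine interleukin-8, had 16.9, 18.2 and 14.1 CPM in iLuc and 1230, 1000 and 1590 CPM in iEF, a log2 fold change of -6.24 ± 0.49 (SE) and an adjusted p of 1.33e-07. LIF, a cytokine of the interleukin-6 family, had 0.55, 0.449 and 0.537 CPM in iLuc and 59, 48.1 and 72.2 CPM in iEF. For both cytokines, each iLuc library lay far below the iEF libraries. TNFAIP3 (A20), a feedback inhibitor, had 3, 3 and 2.93 CPM in iLuc and 26.6, 37.8 and 52.8 CPM in iEF, and ICAM1, an adhesion molecule, had 1.19, 0.729 and 1.13 CPM in iLuc and 11.5, 43.7 and 30 CPM in iEF. The iEF libraries differed among themselves for ICAM1, with replicate 1 lowest. TNFAIP6, a hyaluronan-binding protein, was the only higher member, with 196, 175 and 224 CPM in iLuc and 45.6, 60.9 and 39.2 CPM in iEF.

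Targets of p53 were lower in 10 and higher in 6 of 25 (40% and 24%). These shares are near those of all protein-coding genes, 31.4% and 25.6%. A673 cells are known to lack functional p53. CDKN1A, the CDK inhibitor p21, had 14.3, 15.8 and 18 CPM in iLuc and 89.9, 77.6 and 109 CPM in iEF, and FDXR, ferredoxin reductase, was higher, with 12.5, 13.7 and 13.6 CPM in iLuc and 4.07, 5.09 and 4.48 CPM in iEF. Of the BCL2 family, 10 were lower and 4 higher of 18. BCL2, which protects from apoptosis, had 50, 44.7 and 46.7 CPM in iLuc and 28.3, 28.3 and 26.2 CPM in iEF, and BCL2L11 (BIM), which promotes it, had 6.14, 6.34 and 6.15 CPM in iLuc and 14, 15.9 and 11.7 CPM in iEF.

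Genes of DNA replication were higher in 33 of 46 tested members and lower in 2, but by small amounts. Their median was 0.40, and none was higher past 2-fold. PCNA, the sliding clamp, had 483, 494 and 533 CPM in iLuc and 283, 256 and 294 CPM in iEF, and MCM2 of the helicase had 266, 257 and 287 CPM in iLuc and 192, 183 and 208 CPM in iEF. PRIM1, a primase subunit, had a log2 fold change of 0.96 ± 0.14. RRM2, which makes deoxynucleotides, was not called, with 433, 450 and 487 CPM in iLuc and 474, 334 and 550 CPM in iEF, and TK1, thymidine kinase, was lower, with 59.5, 61.5 and 66 CPM in iLuc and 107, 102 and 138 CPM in iEF. Mitotic genes as a list did not share this change, with 15 higher, 8 lower and a median of 0.02 over 54. MKI67, TOP2A, CCNB1 and CDK1, all marks of dividing cells, were not called, with adjusted p of 0.206, 0.901, 0.82 and 0.338. For CDK1 the values were 272, 259 and 200 CPM in iLuc and 265, 248 and 291 CPM in iEF. HMMR was higher, with a log2 fold change of 0.86 ± 0.14, and ANLN, the scaffold of the cleavage furrow, was lower, with -0.79 ± 0.13. The mitotic count moved between 7 and 20 higher members over the alternatives and that of replication between 22 and 38.

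Of G1 cyclins, CDKs and inhibitors, 6 were higher and 9 lower of 23. CDK6 had 34.7, 28.8 and 26.8 CPM in iLuc and 145, 168 and 167 CPM in iEF, and CCND2, cyclin D2, had 3, 3.03 and 4.63 CPM in iLuc and 0.289, 0.405 and 0.494 CPM in iEF. Both changed by more than 2-fold, which no replication gene did. DNA repair genes were higher in 18 of 41 tested members, with a median of 0.23, and in 31 with total-count scaling. EXO1, an exonuclease, had 106, 112 and 107 CPM in iLuc and 52.3, 47.2 and 54.2 CPM in iEF, and NBN of the break-sensing complex was lower, with 84.6, 76.9 and 93.1 CPM in iLuc and 205, 180 and 207 CPM in iEF. BRCA1 was not called, with an adjusted p of 0.559.

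Genes of the cytosolic ribosome were higher in 51 of 75 tested members and lower in 1, with a median of 0.33, and none passed 2-fold. The count was 31 without replicate 2 of iEF and 68 with total-count scaling. RPL13 had 487, 529 and 500 CPM in iLuc and 295, 285 and 320 CPM in iEF, while RPL27A was lower, with a log2 fold change of -0.39 ± 0.11. Reads of ribosomal protein genes can also map to their processed pseudogenes, which makes single values uncertain. Genes of ribosome biogenesis were higher in 13 of 37 tested members, and in 27 with total-count scaling. NPM1, nucleophosmin of the nucleolus, had 3090, 3290 and 3510 CPM in iLuc and 1580, 1500 and 1800 CPM in iEF, a log2 fold change of 1.02 ± 0.11 (SE) and an adjusted p of 2.27e-06. NCL, nucleolin, had 1530, 1420 and 1710 CPM in iLuc and 1190, 1030 and 1280 CPM in iEF. Nuclear-encoded genes of the respiratory chain and mitochondrial ATP synthase were higher in 44 of 71 tested members and lower in 4, with a median of 0.35. The count higher was 33 without replicate 2 of iEF, and over the alternatives it lay between 25 and 58, the latter with total-count scaling. COX7C, a subunit of cytochrome oxidase, had 224, 244 and 244 CPM in iLuc and 96.5, 93.3 and 89.8 CPM in iEF, and NDUFS8 of complex I was lower, with 25.2, 21.8 and 21.6 CPM in iLuc and 41.9, 33.7 and 41.1 CPM in iEF.

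Cholesterol synthesis gave the largest share of higher members among metabolic lists, 20 of 24 tested members with a median of 0.98. HMGCS1, at the start of the pathway, had 208, 212 and 177 CPM in iLuc and 51, 113 and 50.8 CPM in iEF. SQLE, squalene epoxidase, had 220, 208 and 234 CPM in iLuc and 132, 182 and 120 CPM in iEF. Replicate 2 of iEF was the highest of its group for these 2 genes, and without it 23 members were higher. Fatty acid synthesis genes were higher in 8 of 15 tested members. FASN, fatty acid synthase, had 247, 257 and 218 CPM in iLuc and 82.7, 117 and 93.3 CPM in iEF, and SCD, the stearoyl-CoA desaturase, had 538, 531 and 566 CPM in iLuc and 191, 406 and 205 CPM in iEF with an adjusted p of 0.00917. Serine, glycine and one-carbon enzymes were higher in 14 of 24 tested members. PHGDH and PSAT1, which divert glycolytic carbon to serine, had log2 fold changes of 1.58 ± 0.12 and 1.75 ± 0.16. For PHGDH the values were 226, 308 and 266 CPM in iLuc and 64.5, 112 and 96.9 CPM in iEF. SHMT2 of mitochondria was not called, with an adjusted p of 0.155.

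Glycolysis and hypoxia genes were lower in 19 of 37 tested members and higher in 5. LDHA, lactate dehydrogenase, had 609, 466 and 717 CPM in iLuc and 1560, 1400 and 1440 CPM in iEF, while HK2, hexokinase 2, was higher, with 40.3, 47.7 and 51.8 CPM in iLuc and 23.2, 20.3 and 26.2 CPM in iEF. EPAS1, which encodes HIF-2 alpha, had 0.245, 0.252 and 0.119 CPM in iLuc and 14, 25.8 and 30.6 CPM in iEF. CA9, a sensitive target of hypoxia, was under 0.5 CPM in every library. Genes of the unfolded protein response were lower in 14 of 22 tested members. This response adjusts the folding capacity of the secretory pathway. HSPA5 (BiP), the chaperone of the endoplasmic reticulum, had 208, 197 and 247 CPM in iLuc and 339, 401 and 506 CPM in iEF, and XBP1, a factor of the response, had 50.6, 47.7 and 35 CPM in iLuc and 158, 157 and 165 CPM in iEF. ASNS, asparagine synthetase, was higher, with 108, 169 and 114 CPM in iLuc and 32.3, 49.2 and 45.6 CPM in iEF, and DDIT3 (CHOP) was not called, with an adjusted p of 0.133. Lysosome and autophagy genes were lower in 21 of 36 tested members. CTSB, cathepsin B, had 100, 94.5 and 121 CPM in iLuc and 425, 395 and 486 CPM in iEF, and LAMP1, a lysosomal membrane protein, had 148, 119 and 155 CPM in iLuc and 317, 281 and 315 CPM in iEF.

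**Figure D5:**
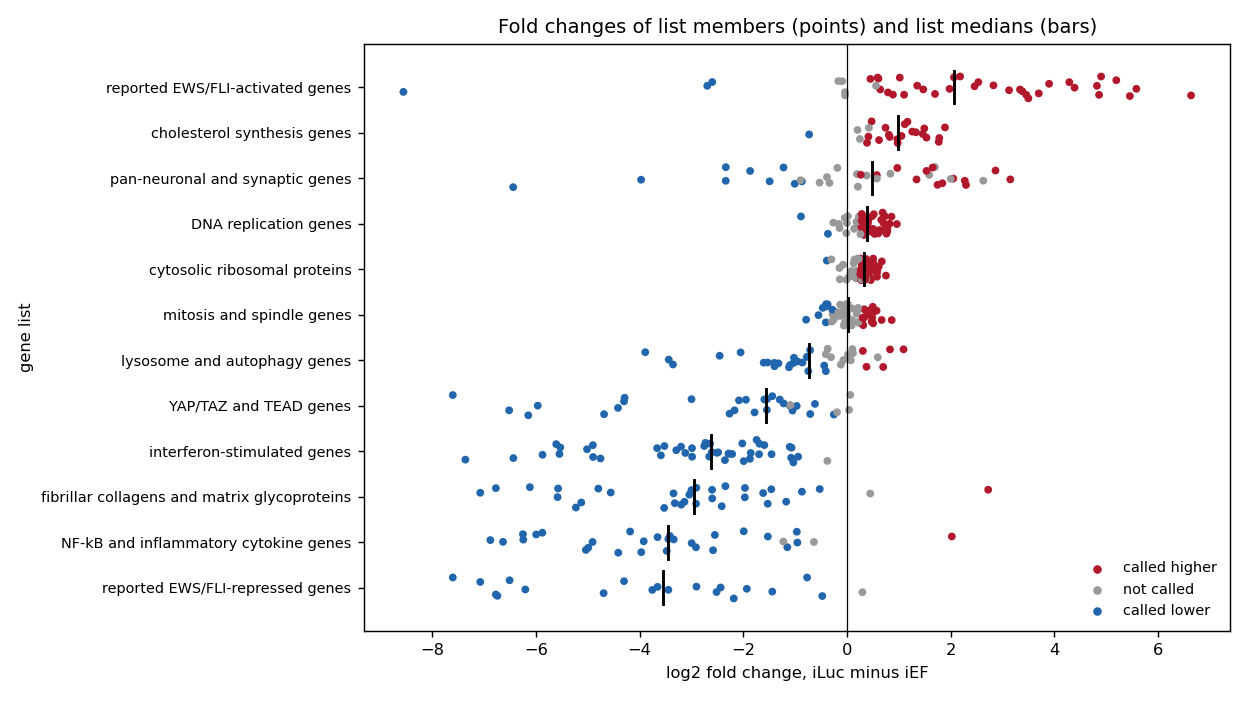
Log2 fold changes (iLuc minus iEF) of the tested members of 12 gene lists, coloured by call, with a black bar at the median of each list. Most members of the replication and ribosomal lists lie close together on the right of 0, with TK1 and RPL27A the lowest of each, whereas the matrix, interferon and NF-kB lists reach below -5, and DCN of the matrix list and TNFAIP6 of the NF-kB list lie on the right of 0.

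Interferon-stimulated genes were lower in 43 of 44 tested members and none was higher, with a median of -2.62. USP18, a brake on interferon receptor signalling, was the member not called, with 20.3, 22.6 and 24.6 CPM in iLuc and 24.3, 35.8 and 25.7 CPM in iEF. IFIT1, which binds viral RNA, had 8.96, 7.94 and 9.07 CPM in iLuc and 75.3, 181 and 47.5 CPM in iEF, and MX1, an antiviral GTPase, had 1.53, 0.982 and 1.73 CPM in iLuc and 41, 84.5 and 29.8 CPM in iEF, a log2 fold change of -5.61 ± 1.03 (SE) and an adjusted p of 0.000428. ISG15, a ubiquitin-like protein, had 13.5, 15 and 15.5 CPM in iLuc and 44.3, 73.5 and 36.6 CPM in iEF. In iEF replicate 2 was the highest and replicate 3 the lowest for IFIT1, MX1 and ISG15, while the 3 iLuc libraries lay close together. The median log2 difference of the list within replicate sets 1, 2 and 3 was -2.074, -3.248 and -1.757. Over the alternatives the count lower lay between 29 and 44, and it was 35 without replicate 2 of iEF.

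Antigen presentation genes were lower in 19 of 25 tested members and higher in 3. HLA-B, a class I heavy chain, had 15.3, 8.53 and 14.2 CPM in iLuc and 233, 312 and 401 CPM in iEF. The HLA genes resemble each other, so reads may have been split or lost between them. B2M, the invariant class I chain, had 1340, 1160 and 1430 CPM in iLuc and 1980, 2410 and 2110 CPM in iEF, and TAP1, the peptide transporter, had 11.7, 8.36 and 11.1 CPM in iLuc and 55.2, 83.2 and 67.4 CPM in iEF. HLA-DPB1 of class II was higher at a low level, with 2.69, 1.68 and 4.12 CPM in iLuc and 0.368, 0.27 and 0.465 CPM in iEF. Complement, coagulation and fibrinolysis genes were lower in 21 of 33 tested members and higher in 5. PLAT and PLAU, the tissue and urokinase plasminogen activators, had log2 fold changes of -6.40 ± 0.38 and -5.21 ± 0.29, and for PLAT the values were 9.87, 7.74 and 7.28 CPM in iLuc and 718, 554 and 872 CPM in iEF. C3, the central complement component, had 0.275, 0.673 and 0.806 CPM in iLuc and 1.6, 2.29 and 6.14 CPM in iEF. C7, a component of the membrane attack complex, was higher, with 34.3, 56.2 and 79.8 CPM in iLuc and 0.131, 0.776 and 0.175 CPM in iEF.

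HOX genes, which set position along the body axis, were higher in 13 of 29 tested members and lower in 8. HOXD13, the last gene of its cluster, had 40.7, 34.8 and 38.2 CPM in iLuc and 17.4, 18.8 and 16.9 CPM in iEF. HOXD11 and HOXD10 of the same cluster had log2 fold changes of 0.95 ± 0.14 and 0.55 ± 0.12. HOXB2 moved the other way, with 7.18, 6.9 and 8.6 CPM in iLuc and 27, 20.5 and 26.6 CPM in iEF, and HOXC13 was higher, with a log2 fold change of 2.15 ± 0.24. ETS family genes were lower in 11 and higher in 6 of 25, with FLI1 itself counted among those higher. ETS1 had 6.39, 2.38 and 4.03 CPM in iLuc and 201, 158 and 214 CPM in iEF, a log2 fold change of -5.54 ± 0.43 (SE) and an adjusted p of 1.15e-07. ETV4, of the group found in rare fusions of this tumour, was not called, with an adjusted p of 0.195.

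Of subunits of the BAF chromatin remodelling complex, 11 were higher and 5 lower of 29, with a median of 0.03 that was 0.24 under total-count scaling. Past 2-fold were 4 members, BCL11B and, named after their values were seen, BCL11A, BCL7A and SMARCC1, with log2 fold changes of 2.38 ± 0.42, 1.51 ± 0.14 and 1.48 ± 0.10 for the latter. SMARCA4 (BRG1), the ATPase, had 309, 316 and 296 CPM in iLuc and 229, 200 and 245 CPM in iEF. Polycomb genes were higher in 12 of 29 tested members and lower in 7. EZH2, the histone H3 methyltransferase, had 237, 258 and 255 CPM in iLuc and 167, 150 and 174 CPM in iEF, and CBX2, a reader of its mark, had 42.2, 46.8 and 43.5 CPM in iLuc and 14.2, 17.1 and 18.6 CPM in iEF. PHF19, which recruits the complex, was lower, with 28.5, 26.5 and 27.9 CPM in iLuc and 71.6, 60.2 and 67 CPM in iEF, and BMI1 was not called, with an adjusted p of 0.0719.

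Some of the largest differences were in genes outside these programs. AK7, an adenylate kinase of cilia, had 386, 553 and 466 CPM in iLuc and 3.76, 18.5 and 2.94 CPM in iEF, a log2 fold change of 6.14 ± 0.51 (SE) and an adjusted p of 2.24e-07. LOXHD1, a protein of hair cell stereocilia, had 36.8, 68.7 and 60.5 CPM in iLuc and 0.342, 1.75 and 0.291 CPM in iEF, and SYNPR, synaptoporin of synaptic vesicles, had 33.6, 29.7 and 58.4 CPM in iLuc and 0.42, 0.27 and 0.204 CPM in iEF. All 3 were at a small share of their iLuc level after knockdown. TRAV3, a variable segment of the T-cell receptor alpha locus, had 8.44, 7.74 and 9.07 CPM in iLuc and 0.0788, 0.0674 and 0.0582 CPM in iEF. A GGAA run of 16 units begins 901 bases after its start, on the opposite strand. Among the 5 genes with the largest gain in CPM in iLuc, HOOK1, an adaptor of dynein, had 1900, 2440 and 1850 CPM in iLuc and 58.1, 182 and 56.4 CPM in iEF, and NRDC, the protease nardilysin, had 2060, 2870 and 2030 CPM in iLuc and 286, 388 and 290 CPM in iEF. PEG3, a paternally expressed zinc finger gene, had 906, 769 and 1050 CPM in iLuc and 80.1, 132 and 70.5 CPM in iEF. Each of these 3 was still present in iEF. Of the genes that were lower, MLPH, melanophilin of melanosome transport, had 0.245, 0.281 and 0.149 CPM in iLuc and 59.3, 56.8 and 66.8 CPM in iEF, and GALNT5, which starts O-glycans, had 0.183, 0.112 and 0.149 CPM in iLuc and 45.5, 30.3 and 42.3 CPM in iEF. ANXA2, annexin A2, and CD59, which protects cells from complement, were among the 5 with the largest fall in CPM in iLuc, with 959, 764 and 1040 CPM in iLuc and 4800, 4360 and 5480 CPM in iEF for the former. CD59 had 163, 140 and 173 CPM in iLuc and 3100, 2320 and 2750 CPM in iEF and a log2 fold change of -4.09 ± 0.23.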

How the data were processed

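RNA-seq libraries of A673 cells were compared between iLuc and iEF, with 3 libraries each. The authors aligned paired-end reads of 150 bp to hg19 with STAR (version 2.5.1b per the labels). Gene counts were made with htseq-count, intersection-strict mode, and the deposited counts are whole numbers without normalization. A read that fits more than 1 gene is not assigned in that mode, which lowers counts of overlapping and duplicated genes. The authors also deposited counts after adjustment of replicate sets with ComBat, which are estimated counts with decimals and were used, rounded, only as an alternative. Another deposited table holds the authors' own fold changes and p-values from DESeq2 and was not used, and 3 columns of other samples were left out.

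Groups and replicate numbers were taken from the sample labels. Genes averaging at least 1 count over the 15 libraries (28793 of 57820, of which 39247 had a count in the 6 libraries) were fitted with edgeR 4.0.16 in R 4.3.3 by the quasi-likelihood test, with TMM scaling, group and replicate number as terms, and Benjamini-Hochberg adjustment over all genes at 0.05. The replicate number was a block because the methods state that replicate sets were adjusted as batches. Deviations from group means correlated at 0.160, 0.142 and 0.0551 between iLuc and iEF libraries of the same number over 13164 genes, and at -0.162 to 0.0357 otherwise. Replicates differed by more than counting noise, with a chi-square per gene of 15.1 to 33.7 between pairs. The 6 libraries held 29959146 to 41859880 counts, and floors of 3 counts cover counting error only. On simulated counts for 28143 genes, 72 of 101 genes changed 2-fold, 87 of 99 changed 4-fold and 11 of 27943 unchanged genes were called. The simulation changed far fewer genes than were called in the data, with rises and falls equally likely. It also held no effect of replicate sets, so these rates may not hold for the data.

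Of 1533 genes in 53 lists, 1526 matched an identifier and 1453 were tested. Lists and members were chosen with earlier results of these data known. Named genes are FLI1, EWSR1, the marked members of each list, the called members of each list with the largest rise and fall (average of at least 50 counts, the same direction in 3 sets), the 10 largest rises and falls over all genes, and the 5 largest gains and losses in CPM. Genes named outside that rule are said to be so, or are the cell type markers, and some genes that the rule names are not reported here. Gene starts and GGAA runs were read from GRCh37 with GENCODE v44lift37 and promoters from RefSeq (GRCh38.p14). Alternatives were the size factors and the Wald test of DESeq2 1.42.0, no filter, filterByExpr, no replicate block, only the 6 libraries, the ComBat-adjusted counts, leaving out each library or replicate set, and, chosen after the scaling factors were seen, total-count scaling.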

Additional observations from a re-analysis of the deposited data

How the results depend on the processing

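The replicate number was a block in the model, and without the replicate block 5253 genes were higher and 6113 lower, against 5624 and 6368 with it. Over the fits that left out a library or a replicate set, the count of higher genes ran from 3689, without replicate 1 of all groups, to 4799, and that of lower genes from 4873 to 6054. Total-count scaling, chosen after the data were seen, gave 7865 higher and 5102 lower. No called gene changed sign in the other 16 fits, among genes given a value, and 13 did with total-count scaling. The share of higher genes among those called ran from 43.1% to 49.2% in those 16 fits.

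Of 173 called genes named with library values, a fold change or a p, 15 lost the call in at least 1 alternative and none changed direction. Without the block these were C3, FOXO1, HES1, SNAP25 and YAP1, and with total-count scaling COL4A1, FOXO1, PAX6, RPL27A, TWIST1 and YAP1. Calls lost without 1 library were C3, COL4A1, HES1, LAMB3, SCD, SNAP25 and YAP1 for replicate 1 of iEF, C3, PAX6, SNAP25, TWIST1 and YAP1 for replicate 2, and EWSR1, FOXO1, HES1, LAMB3, SCD, SNAP25 and YAP1 for replicate 3. For iLuc they were RPL27A, SCD, SNAP25, TWIST1 and YAP1 for replicate 1, COL4A1, HES1, PAX6, RPL27A, TWIST1 and YAP1 for replicate 2, and C3, COL4A1, EWSR1, FOXO1 and LAMB3 for replicate 3. B2M, HOXD10 and ISG15 lost theirs without a whole replicate set, EWSR1 also with no filter on low counts, and YAP1 also with DESeq2 or the ComBat-adjusted counts. Of 20 such genes not called, 11 were called in at least 1 alternative.

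List counts moved by over 1.5 times without 1 library in these cases. Higher pan-neuronal genes went from 13 to 8 without replicate 2 of iEF or replicate 1 of iLuc, higher ribosomal protein genes from 51 to 31 or 33 without replicate 2 of iEF or replicate 3 of iLuc, and lower endothelial genes from 12 to 7 without replicate 1 of iEF. Higher mitotic genes went from 15 to 9 without replicate 2 of iEF or replicate 2 or 3 of iLuc, and lower ones from 8 to 4 or 5 without replicate 3 of iEF or replicate 1 or 2 of iLuc. Higher members of the fat, epithelial, complement and lysosome lists, 5 or 6 each, went to between 1 and 3. The cause of these moves was not tested.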

Other observations

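Families were defined by the letters of the symbol before its first digit, so a group can hold genes outside the protein family of that name. Stems with at least 12 protein-coding members tested gave 159 groups, some of which share members with the lists above. The groups named here were chosen after their values were seen. POU factors, many of which act in developing neurons, were higher in 9 of 16, with a median log2 fold change of 1.82. METTL methyltransferases were higher in 15 of 27 and NDUFA subunits of complex I in 10 of 14. Zinc finger genes named ZNF were higher in 158 of 473 (33.4%) and lower in 13.5%. Of families with more falls, ADAMTS proteases were lower in 14 of 19, MMP proteases in 13 of 19 and receptors named TNFRSF in 13 of 19, with medians of -2.51, -1.65 and -2.04. Genes with the stem IRF were lower in 8 of 12 and those with the stem SERPINB in 8 of 12. Genes with the stem RAB were lower in 37 of 70 (median -0.36) and sorting nexins named SNX in 15 of 29 (median -0.54). By contrast, VPS genes, also of vesicle traffic, were lower in 10 and higher in 9 of 35. TRAPPC genes were lower in 1 and higher in 2 of 16. Solute carriers were higher in 23.5% and lower in 31.3%, close to the shares of all protein-coding genes.

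Calls were also counted in other RNA classes, with no test between classes. Of 5776 long non-coding RNAs tested 14.4% were higher and 14.4% lower, and of 3279 processed pseudogenes 7.69% and 4.33%. Among all genes averaging under 10 counts, 7.23% were higher and 8.53% lower, against 27.5% and 38.4% of those averaging 1000 to 10000.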
